A study of Homo sapiens with 6 samples.

Results

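The genes described here encode the machinery that copies DNA: the proteins that mark and license origins, the helicase that unwinds them, the polymerases, the sliding clamp and its loader, the proteins that coat single strands, and the enzymes that supply nucleotides. The 45 members were chosen by name, and all 45 were found among the 27788 gene symbols of the expression table. They were chosen with earlier results of these data known, so the counts below describe the list and do not test it. RNA was measured in human BJ foreskin fibroblasts, an established cell line, that had been driven towards pluripotency for 8 days by lentiviral OCT4, SOX2, KLF4 and MYC, carried on a pair of polycistronic constructs (O2S and K2M). On day 8 the cells were sorted by CD13, an aminopeptidase encoded by ANPEP, and CD201, the endothelial protein C receptor encoded by PROCR. The double-negative group lacked both surface proteins, the CD201-only group was CD13-negative and CD201-positive, and the double-positive group carried both. Each group has 2 libraries, 6 in all. Every group carried the same viral constructs and came from the same line, kept in serum at first and later in stem-cell medium. Transcript levels of the delivered factors differed between the groups, as given below. The labels do not say whether the 2 libraries of a group came from separate cultures, so p-values measure only the spread between these libraries, which may be technical. Uninfected fibroblasts were not analysed here.

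A cell copies its genome once per cycle in an ordered series of steps. The origin recognition complex sits on DNA and, with CDC6 and CDT1, loads the MCM2 to MCM7 ring as an inactive double hexamer in G1 phase. At the start of S phase, kinases turn that ring into an active helicase by adding CDC45 and the GINS complex, and the polymerases follow. Many of these genes are transcribed in late G1 by E2F factors, which are held back in resting cells by the retinoblastoma family of proteins. Proliferation is known to accompany the early stages of reprogramming in culture.

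Expression is given in FPKM, a fragment count scaled by transcript length and library size, as deposited, so levels can be compared between genes per unit of length. Log2 changes are on the log2(FPKM + 1) scale from a limma fit, with their standard error (SE), and a gene was called when its Benjamini-Hochberg adjusted p over 12210 tested genes was under 0.05. The scale understates the change of low genes, so ratios of mean FPKM are given beside it for the low genes and the largest changes. Of the 45 members, 44 reached the mean of 1 FPKM needed for testing. POLE2, the second subunit of polymerase epsilon, did not: it was at 0.933 and 1.17 FPKM in the double-negative libraries, 0.900 and 1.05 in CD201-only, and 0.484 and 0.733 in double-positive.

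The replication genes as a group were higher in both CD13-negative groups than in double-positive cells. The 45 members summed to 1422.5 and 1404.5 FPKM in the double-negative libraries, 1459.0 and 1458.9 in CD201-only, and 940.25 and 949.43 in double-positive. They made up 0.277% and 0.274% of all FPKM in double-negative, 0.280% and 0.280% in CD201-only, and 0.192% and 0.194% in double-positive libraries, so the 4 CD13-negative libraries lay together and apart from the double-positive pair. Among the 44 tested members, 43 rose in double-negative against double-positive cells and 0 fell, where 42.1% of all tested genes rose and 24.5% fell. In CD201-only against double-positive cells 42 rose and 0 fell, beside 35.8% and 22.9% of all tested genes. The median change of the members was 0.61 (range 0.08 to 1.04) in the first comparison and 0.63 (range 0.16 to 0.90) in the second, beside medians of 0.11 and 0.08 over all tested genes. Both comparisons use the same double-positive libraries, so they are not independent of each other. By the moderated F test, 43 of 44 members differed among the 3 groups, beside 73.0% of all tested genes. CDC7 was the exception (adjusted p = 0.0950). In RNA from bulk samples, a larger share of cells in S phase and more transcript in each cell cannot be told apart.

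**Figure D1:**
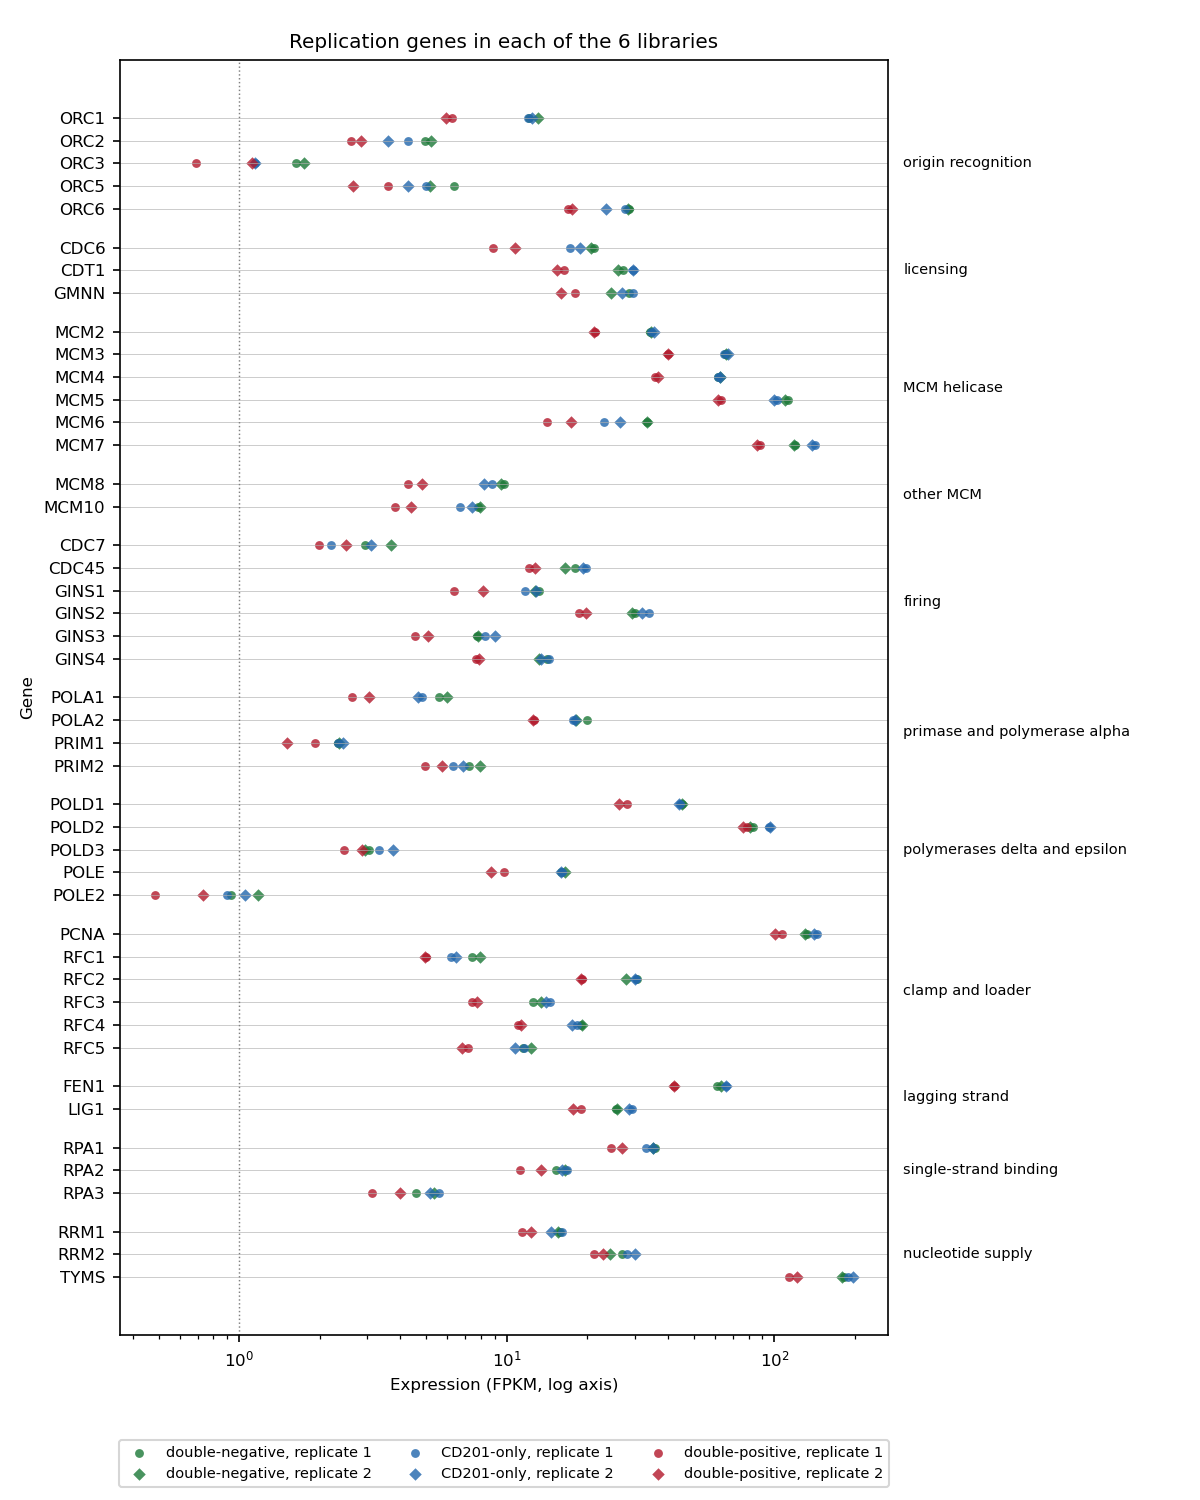
FPKM (log axis) of the 45 replication genes, grouped by role, in each of the 6 libraries, with colour for the sorted group and symbol shape for the replicate. For most genes the green double-negative and blue CD201-only points lie together to the right of the red double-positive points. The dotted line marks 1 FPKM.

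Other features of the libraries moved with the same contrast. The summed FPKM of 10 fibroblast markers was 5479 to 5482 in double-negative, 6310 to 6336 in CD201-only and 10590 to 10740 in double-positive libraries, and 9 of the 10 had a mean of at least 1 FPKM, so the labelled cell type was visible in every group. Epithelial markers (8 genes, 7 at a mean of 1 FPKM or more) summed to 3099 to 3112, 4085 to 4157 and 2075 to 2144 in the same order, and pluripotency markers (8 genes, 7 at that level) to 202.7 to 202.8, 128.5 to 129.1 and 60.59 to 63.21. KRT8 and KRT18 made up most of the epithelial sum. Against double-positive cells 8 of the 9 tested fibroblast markers fell in each comparison. THY1 rose in double-negative (ratio 1.2) and S100A4 in CD201-only cells (ratio 1.16). Between the CD13-negative groups 6 fibroblast markers were higher and 2 lower in double-negative cells. The lower ones were VIM and S100A4, the latter averaging 1270 FPKM in double-negative and 2566 in CD201-only cells. Of the 7 tested epithelial markers, 5 rose and KRT19 (ratio 0.786) and CLDN4 (0.304) fell in double-negative against double-positive cells, while all 7 rose in CD201-only cells. The endothelial markers (6 genes, 3 at a mean of 1 FPKM or more) summed to 19.35 to 19.47 in double-negative, 30.29 to 32.15 in CD201-only and 26.17 to 28.29 in double-positive libraries. PECAM1 was at or near 0 in every library. Of the 3 tested, 1 rose and 2 fell in double-negative against double-positive cells, and 2 rose and 1 fell in CD201-only cells. The blood markers summed to 21.1 to 22.07, 9.647 to 11.34 and 33.58 to 35.08. Most of that was CD14, which averaged 19.8, 8.94 and 32.9 FPKM and fell against double-positive cells by 0.71 in double-negative and by 1.78 in CD201-only cells (adjusted p = 1.56e-04 and 2.30e-06), while CD3E was at 0 in every library. ANPEP and PROCR followed the sort: mean ANPEP was 155 FPKM in the CD13-positive group and 36.0 and 28.9 in the double-negative and CD201-only groups, and mean PROCR was 17.3 in the double-negative group and 47.5 and 51.9 in the CD201-only and double-positive ones. The part of the fibroblast, epithelial, pluripotency, endothelial and blood marker differences in the replication results was not tested. Depth relative to the deepest library was estimated from the genes with the lowest FPKM values. For each library their most frequent ratio to the first double-negative library was taken and inverted. Relative depth was 0.783 and 0.916 in double-negative, 0.816 and 1.0 in CD201-only, and 0.732 and 0.824 in double-positive libraries.

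Because the members moved together, the sequence around their transcription starts was read from RefSeq (GRCh38.p14), in windows of 300 bases from 250 before to 50 after each start. A window was listed for 39 members, and 8 of these had several windows. A gene counted as matched when any of its windows held the letters, and printed positions refer to the window that holds them. Windows were searched on both strands for 4 spellings of the E2F site, TTTCCCGC, TTTCGCGC, TTTGCCGC and TTTGGCGC, which can overlap one another, for the CCAAT box and for the GC box, GGGCGG. At least 1 E2F spelling was found for 21 of 39 members (53.8%), beside 6.79% of the 9439 tested genes with a window and 3.31% of all 35116 windows. CCAAT was found for 24 members (61.5%, beside 43.3% of tested genes and 34.6% of windows) and GGGCGG for 29 (74.4%, beside 78.5% and 45%). Among tested members the median change against double-positive cells was 0.64 (range 0.33 to 1.04, n = 20) with an E2F spelling and 0.57 (0.08 to 0.94, n = 18) without one for double-negative cells, and 0.70 (0.16 to 0.85) and 0.49 (0.26 to 0.90) for CD201-only cells. The ranges of members with and without the spelling overlapped over most of their length. A match in letters is not evidence that a factor binds there, and a window without one says nothing about the factor. Below, sequences are printed 5′ to 3′ on the strand of the gene, with the letters of E2F and CCAAT matches in capitals.

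Origin recognition genes were higher in CD13-negative cells, and ORC1 had the largest CD201-only change of all 44 tested members. ORC1 is the subunit of the origin recognition complex whose protein is made and destroyed within each cycle. It was at 12.2 and 13.0 FPKM in double-negative, 12.0 and 12.4 in CD201-only, and 6.23 and 5.93 in double-positive libraries. The 4 CD13-negative libraries were about level and none overlapped the double-positive pair. ORC1 rose 2.07-fold in double-negative (log2 0.94, SE 0.0563, adjusted p = 9.15e-06) and 2.01-fold in CD201-only cells (0.90, SE 0.0563, adjusted p = 1.37e-05). ORC6, the small subunit, was at 28.6 and 28.3, 27.6 and 23.5, and 16.98 and 17.6 FPKM in the same order, and rose by 0.69 (SE 0.0697, adjusted p = 1.24e-04) and 0.53 (SE 0.0697, adjusted p = 5.46e-04).

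The core subunits ORC2, ORC3 and ORC5 stepped down from double-negative through CD201-only to double-positive cells in their means. ORC2 was at 4.96 and 5.21 FPKM in double-negative, 4.28 and 3.61 in CD201-only, and 2.62 and 2.84 in double-positive libraries, with no overlap between any groups. All 3 of its pairwise differences were called (ratios of 1.86, 1.45 and 1.29, log2 0.71, 0.40 and 0.30, SE 0.0871, adjusted p = 3.31e-04, 0.00607 and 0.0319). The third, between the CD13-negative groups, was lost without the first double-negative library (0.33, adjusted p = 0.0974), the second (0.27, 0.149) or the second CD201-only one (0.20, 0.156). That ORC2 call was also lost with no filter (adjusted p = 0.0788) and under quantile normalization (adjusted p = 0.0694). ORC3 was at 1.64 and 1.74, 1.15 and 1.15, and 0.688 and 1.12 FPKM. Its double-positive libraries differed from each other by 47.5% of their mean, the widest replicate gap of any member in any group, and the second nearly reached the CD201-only level. ORC3 rose 1.87-fold in double-negative cells (0.51, SE 0.122, adjusted p = 0.00828) but the CD201-only difference, a ratio of 1.27, was not called (0.18, adjusted p = 0.229). It was called when the second double-positive library was left out (0.35, adjusted p = 0.0287). ORC5, at 6.33 and 5.15, 4.98 and 4.28, and 3.61 and 2.67 FPKM, rose 1.83-fold in double-negative (0.71, SE 0.136, adjusted p = 0.00300) and 1.47-fold in CD201-only cells (0.45, SE 0.136, adjusted p = 0.0252), the second call being lost without the first CD201-only library (0.36, adjusted p = 0.131) or the second double-positive one (0.28, adjusted p = 0.123). The CD201-only call of ORC5 was also lost with no filter (adjusted p = 0.0789). ORC4, the remaining core subunit and not a member, had means of 1.05, 0.777 and 0.901 FPKM and was too low to be tested.

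The 3 licensing genes rose in both comparisons. CDC6, the ATPase that helps load the helicase, was at 21.2 and 20.7 FPKM in double-negative, 17.2 and 18.7 in CD201-only, and 8.88 and 10.7 in double-positive libraries. The lowest CD13-negative library lay well above the higher double-positive one. CDC6 rose 2.14-fold in double-negative (log2 1.03, SE 0.0830, adjusted p = 3.96e-05), the second largest change on the log2 scale among the members, and 1.83-fold in CD201-only cells (0.82, SE 0.0830, adjusted p = 1.53e-04). CDT1, its partner in loading, was at 27.1 and 26.1, 29.6 and 29.6, and 16.4 and 15.4 FPKM. It was highest in CD201-only cells, where it rose 1.86-fold (0.85, SE 0.0432, adjusted p = 5.10e-06), against 1.67-fold in double-negative cells (0.71, SE 0.0432, adjusted p = 1.02e-05). GMNN encodes geminin, which binds CDT1 and blocks a second round of licensing. It was at 28.5 and 24.6, 29.6 and 26.9, and 17.9 and 15.9 FPKM and rose by 0.62 (SE 0.0856, adjusted p = 5.88e-04) and 0.71 (SE 0.0856, adjusted p = 3.73e-04). The ratio of CDT1 to GMNN therefore stayed within 0.917 to 1.10 in all 6 libraries, and its groups overlapped. The ratio of CDT1 to CDC6 was 1.28 and 1.26 in double-negative, 1.72 and 1.58 in CD201-only, and 1.85 and 1.44 in double-positive libraries, lowest in the double-negative pair.

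These 3 genes each hold an E2F spelling near the start. In CDC6 it lies just inside the transcript, at chr17:40287875-40287904 (plus strand), in CDT1 just upstream, at chr16:88803743-88803772 (plus strand), and in GMNN further upstream, at chr6:24775322-24775351 (plus strand). They are shown because CDC6 and CDT1 were among the members with the largest changes and GMNN encodes the inhibitor that rose beside CDT1.
CDC6: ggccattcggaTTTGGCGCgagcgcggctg
CDT1: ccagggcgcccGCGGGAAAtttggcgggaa
GMNN: gctgggtcggtTTTGGCGCgctctcacttc

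All 6 genes of the MCM2 to MCM7 helicase rose in both comparisons. MCM2, MCM3 and MCM4 were nearly equal in the CD13-negative groups. MCM2 was at 34.3 and 34.5 FPKM in double-negative, 34.6 and 35.5 in CD201-only, and 21.4 and 21.2 in double-positive libraries. MCM3 was at 65.6 and 65.6, 65.0 and 67.2, and 40.2 and 39.9 FPKM, and MCM4 at 61.7 and 62.5, 61.3 and 62.7, and 35.9 and 36.6. Replicates of these genes differed by little and the double-positive pair was apart in each. Their rises in double-negative cells were 0.67 (MCM2, SE 0.0333, adjusted p = 3.82e-06), 0.70 (MCM3, SE 0.0297, adjusted p = 1.83e-06) and 0.76 (MCM4, SE 0.0298, adjusted p = 1.35e-06). In CD201-only cells they were 0.69, 0.71 and 0.76 (adjusted p = 4.09e-06, 2.18e-06 and 1.73e-06). The double-negative minus CD201-only differences were -0.03, -0.01 and 0.00, none of them called.

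MCM5, MCM6 and MCM7 were called different between the 2 CD13-negative groups, and of these only the MCM7 call held under all 14 alternatives. The MCM6 call was lost with no filter (adjusted p = 0.0534) and without either double-negative library or the first CD201-only one (adjusted p = 0.0775, 0.0715 and 0.0783). The MCM5 call was lost without the variance trend (adjusted p = 0.0557) and without the first double-negative or the second CD201-only library (adjusted p = 0.0839 and 0.0678). MCM5 was at 112 and 109 FPKM in double-negative, 102 and 99.9 in CD201-only, and 63.1 and 61.6 in double-positive libraries. MCM6 was at 33.5 and 33.3, 23.0 and 26.4, and 14.2 and 17.4 FPKM, and MCM7 at 119 and 119, 142 and 138, and 88.3 and 86.4. For MCM5 and MCM6 the double-negative libraries were highest, for MCM7 the CD201-only ones, and no groups overlapped in any of the 3 genes. MCM6 rose 2.12-fold in double-negative against double-positive cells (log2 1.04, SE 0.0966, adjusted p = 7.95e-05), the largest change of any member on the log2 scale, but 1.56-fold in CD201-only cells (0.62, SE 0.0966, adjusted p = 0.00133). MCM7 rose 1.36-fold in double-negative (0.44, SE 0.0273, adjusted p = 1.07e-05) and 1.6-fold in CD201-only cells (0.67, SE 0.0273, adjusted p = 1.94e-06). MCM5 rose by 0.82 and 0.69 (SE 0.0286, adjusted p = 8.38e-07 and 2.15e-06).

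As a share of the summed FPKM of the 6 helicase genes, MCM6 made up 7.87% and 7.85% in double-negative, 5.38% and 6.15% in CD201-only, and 5.39% and 6.62% in double-positive libraries. MCM7 made up 27.9% and 28.0%, 33.2% and 32.0%, and 33.6% and 32.8%. The double-negative pair thus stood apart from the other 4 libraries in both shares, with MCM6 higher and MCM7 lower. MCM2 stayed within 8.05% to 8.27% and MCM3 within 15.2% to 15.7% in all 6 libraries. The MCM6 replicates differed by over 10% of their mean in double-positive and in CD201-only cells. MCM7 shares exon positions with AP4M1, which is on the opposite strand and averaged 11.1 FPKM, and MCM2 with TPRA1, on the opposite strand at 22.6 FPKM. The library kit kept strand, but the strand setting of the counting is not given in the sources used here.

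The upstream sequence of MCM6 is shown because its change on the log2 scale was the largest among the members. The stretch is chr2:135876444-135876693 on the minus strand, the 250 bases before the start, and it holds 4 E2F matches as 2 pairs, each pair overlapping within the same 12 letters and read on both strands, and 2 CCAAT boxes read on the opposite strand (ATTGG). For MCM2 (chr3:127598402-127598431, plus strand) and MCM7 (chr7:100101388-100101417, minus strand) a stretch of 30 bases at the start is given, where in MCM2 the same letters match on both strands and in MCM7 a CCAAT box overlaps the E2F spelling.
MCM6: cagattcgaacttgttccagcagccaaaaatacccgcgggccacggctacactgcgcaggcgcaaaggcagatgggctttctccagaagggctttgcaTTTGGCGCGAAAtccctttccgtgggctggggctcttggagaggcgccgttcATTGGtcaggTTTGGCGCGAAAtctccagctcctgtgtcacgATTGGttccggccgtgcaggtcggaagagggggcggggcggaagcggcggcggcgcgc
MCM2: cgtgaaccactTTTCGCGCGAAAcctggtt
MCM7: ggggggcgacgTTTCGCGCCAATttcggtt

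MCM8 and MCM10, outside the hexamer, rose as well. MCM8, which acts with MCM9 in homologous recombination, was at 9.72 and 9.50 FPKM in double-negative, 8.78 and 8.22 in CD201-only, and 4.27 and 4.81 in double-positive libraries. It rose 2.12-fold (log2 0.94, SE 0.0682, adjusted p = 2.35e-05) and 1.87-fold (0.78, SE 0.0682, adjusted p = 7.11e-05). MCM10, which helps start unwinding, was at 7.83 and 7.93, 6.69 and 7.43, and 3.82 and 4.39 FPKM. It rose 1.92-fold and 1.72-fold (0.80 and 0.66, SE 0.0782, adjusted p = 1.02e-04 and 3.31e-04). In both genes the double-negative libraries were highest, but neither difference from CD201-only was called. MCM9, not a member, averaged 2.06, 1.71 and 1.30 FPKM and rose 1.59-fold in double-negative cells (0.41, SE 0.0897, adjusted p = 0.00541), with a CD201-only difference of 0.23 (ratio 1.31) that was not called (adjusted p = 0.0580). MCMBP, which binds MCM proteins in place of MCM2, averaged 20.3, 17.1 and 12.5 FPKM and rose by 0.66 and 0.43 (adjusted p = 5.90e-04 and 0.00584).

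Genes that turn the loaded ring into a moving helicase rose, except that CDC7 was weak. The GINS complex, a complex of 4 proteins that joins MCM2 to MCM7 and CDC45, was higher in all 4 of its genes in both comparisons. GINS1 was at 13.1 and 12.7 FPKM in double-negative, 11.7 and 12.9 in CD201-only, and 6.35 and 8.16 in double-positive libraries. GINS2 was at 30.2 and 29.3, 34.0 and 32.0, and 18.6 and 19.8 FPKM. GINS1 was about level in the CD13-negative groups, while GINS2 was highest in CD201-only cells without overlap between groups. Changes of the 4 genes ran from 0.60 (GINS3) to 0.76 (GINS1) in double-negative and from 0.69 (GINS1) to 0.76 (GINS4) in CD201-only cells. The exons of GINS2 share positions with GSE1 on the opposite strand, at 22.1 FPKM. CDC45 was at 17.9 and 16.5, 19.7 and 19.2, and 12.1 and 12.8 FPKM, highest in CD201-only libraries, and rose by 0.44 (SE 0.0530, adjusted p = 3.11e-04) and 0.60 (SE 0.0530, adjusted p = 7.15e-05).

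CDC7, the kinase that phosphorylates the MCM ring at the start of S phase, had the least clear difference of the firing genes. It was at 2.95 and 3.69 FPKM in double-negative, 2.21 and 3.11 in CD201-only, and 1.99 and 2.51 in double-positive libraries. The CD201-only libraries spanned most of the range and overlapped both other groups. CDC7 rose 1.48-fold in double-negative cells (0.41, SE 0.149, adjusted p = 0.0437) and its CD201-only difference of 0.16 (ratio 1.18) was not called (adjusted p = 0.378). The double-negative call was lost under 8 of 14 alternatives, among them leaving out the first double-negative library (0.53, adjusted p = 0.0511), the second (0.29, 0.226) or the first double-positive one (0.30, 0.199). Adjusted p ran from 0.00483 to 0.226 over the alternatives.

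Primase and polymerase alpha, which lay down the RNA-DNA primer, were higher in both comparisons in all 4 genes. POLA1, the catalytic subunit, was at 5.59 and 5.98 FPKM in double-negative, 4.81 and 4.66 in CD201-only, and 2.63 and 3.06 in double-positive libraries, in 3 separate levels. It rose 2.03-fold (log2 0.82, SE 0.0787, adjusted p = 9.38e-05) and 1.66-fold (0.58, SE 0.0787, adjusted p = 6.68e-04). POLA2, the accessory subunit, was at 19.9 and 18.2, 17.7 and 17.9, and 12.6 and 12.5 FPKM and rose by 0.56 and 0.48 (SE 0.0504, adjusted p = 6.48e-05 and 1.88e-04). The primase subunits moved less. PRIM1 was at 2.34 and 2.36, 2.33 and 2.44, and 1.93 and 1.51 FPKM, and PRIM2 at 7.20 and 7.94, 6.28 and 6.87, and 4.94 and 5.70. PRIM1 rose 1.37-fold and 1.39-fold (0.31 and 0.32, SE 0.0956, adjusted p = 0.0249 and 0.0241) and PRIM2 1.42-fold and 1.24-fold (0.44 and 0.26, SE 0.0842, adjusted p = 0.00292 and 0.0310). The PRIM1 calls were lost without the second double-positive library (0.20, adjusted p = 0.108, in double-negative cells and 0.21, adjusted p = 0.10, in CD201-only cells). They were also lost without either library of the CD13-negative group compared (0.31 and 0.30, adjusted p = 0.0830 and 0.0886, in double-negative cells, and 0.34 and 0.30, adjusted p = 0.0674 and 0.0988, in CD201-only cells). The CD201-only call of PRIM2 was lost without the second CD201-only library (0.21, adjusted p = 0.153) or the first double-positive one (0.18, adjusted p = 0.151). PRIM1 shares exon positions with NACA, which is on the same strand at 240 FPKM, so its level is uncertain.

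The subunits of the replicative polymerases did not move as one. POLD1, the catalytic subunit of polymerase delta, was at 44.9 and 45.02 FPKM in double-negative, 44.3 and 44.0 in CD201-only, and 28.0 and 26.2 in double-positive libraries. POLE, the catalytic subunit of polymerase epsilon, was at 15.9 and 16.4, 16.1 and 15.9, and 9.80 and 8.76 FPKM. Each was level in the CD13-negative libraries and lower in both double-positive ones. POLD1 rose 1.66-fold and 1.63-fold (log2 0.71 and 0.68, SE 0.0386, adjusted p = 5.72e-06 and 8.31e-06), and POLE 1.74-fold and 1.72-fold (0.74 and 0.73, SE 0.0584, adjusted p = 3.49e-05 and 4.62e-05).

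POLD2, the regulatory subunit that ties POLD1 to the smaller ones, behaved otherwise. It was at 82.8 and 81.2 FPKM in double-negative, 95.4 and 96.1 in CD201-only, and 78.7 and 76.5 in double-positive libraries. The CD201-only pair was highest and the other 2 groups were close. POLD2 has a named pseudogene. Its rise of 0.08 in double-negative cells (SE 0.0277, adjusted p = 0.0388) was the smallest of any member and lay below the median of all tested genes. Under median-ratio rescaling of the libraries it became -0.0421 (adjusted p = 0.258), and adjusted p ran from 0.0299 to 0.707 over the alternatives. The call was also lost in 5 of the 6 fits that left out 1 library, all but the one without the first double-positive library, with changes of 0.06 to 0.09. In CD201-only cells POLD2 rose 1.23-fold (0.30, SE 0.0277, adjusted p = 9.32e-05). The ratio of POLD1 to POLD2 was accordingly 0.543 and 0.555 in double-negative, 0.464 and 0.458 in CD201-only, and 0.356 and 0.343 in double-positive libraries, in 3 separate levels.

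The smaller delta subunits completed the contrast. POLD3 was at 3.06 and 2.95 FPKM in double-negative, 3.33 and 3.77 in CD201-only, and 2.46 and 2.87 in double-positive libraries, with the double-negative pair just above the higher double-positive library. Its double-negative difference of 0.13 (ratio 1.13) was not called (SE 0.0892, adjusted p = 0.230), and its 1.33-fold CD201-only rise (0.31, SE 0.0892, adjusted p = 0.0200) was lost without the second CD201-only library (0.24, adjusted p = 0.113) or the first double-positive one (0.23, adjusted p = 0.0967). POLD4, the smallest subunit, which is degraded after DNA damage and is not a member, went the other way. It was at 29.6 and 28.7, 37.8 and 34.2, and 61.9 and 60.2 FPKM, with both double-positive libraries far above the other 4. POLD4 fell by 1.04 in double-negative (SE 0.0497, adjusted p = 3.14e-06) and by 0.75 in CD201-only cells (SE 0.0497, adjusted p = 1.85e-05), and was lower in double-negative than in CD201-only cells by 0.29 on the log2 scale (-0.29, adjusted p = 0.00356).

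The clamp and its loader rose in all 6 genes in both comparisons. PCNA, the ring that holds polymerases on DNA, was the second most abundant member and was at 132 and 130 FPKM in double-negative, 144 and 140 in CD201-only, and 107 and 100.3 in double-positive libraries. All 4 CD13-negative libraries were higher than the double-positive pair. The rise was 1.26-fold in double-negative (log2 0.33, SE 0.0360, adjusted p = 1.73e-04) and 1.37-fold in CD201-only cells (0.45, SE 0.0360, adjusted p = 4.34e-05), smaller than the members' median in both. Among the loader subunits RFC3 was at 12.5 and 13.4, 14.4 and 14.0, and 7.42 and 7.72 FPKM and rose 1.71-fold and 1.88-fold (0.70 and 0.83, SE 0.0535, adjusted p = 2.91e-05 and 1.61e-05). RFC1, the large subunit, was at 7.44 and 7.90, 6.17 and 6.47, and 4.99 and 4.94 FPKM, in 3 separate levels. It rose 1.54-fold and 1.27-fold (0.54 and 0.30, SE 0.0603, adjusted p = 2.06e-04 and 0.00472). RFC2, RFC4 and RFC5 changed by 0.60 to 0.72 in double-negative and 0.60 to 0.65 in CD201-only cells. PCNA, RFC3 and RFC5 have named pseudogenes, and RFC4 and RFC5 share exon positions with EIF4A2 and WSB2 on the opposite strand, so these levels carry that uncertainty.

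An upstream stretch of PCNA is shown because it is the second most abundant member. The stretch, chr20:5126627-5126785 on the minus strand, holds 1 E2F spelling and 3 CCAAT boxes. PCNA has 2 listed windows, and the other one holds no E2F spelling.
PCNA: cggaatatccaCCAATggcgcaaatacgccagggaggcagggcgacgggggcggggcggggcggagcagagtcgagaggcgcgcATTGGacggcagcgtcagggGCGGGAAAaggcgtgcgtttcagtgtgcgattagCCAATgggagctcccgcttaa

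FEN1 and LIG1, which trim and seal the fragments of the lagging strand, rose together. FEN1, the flap nuclease, was at 60.8 and 63.1 FPKM in double-negative, 65.7 and 65.7 in CD201-only, and 42.2 and 42.2 in double-positive libraries. LIG1, the ligase, was at 25.6 and 25.9, 29.3 and 28.6, and 19.0 and 17.7 FPKM. Both were highest in CD201-only libraries and lowest in the double-positive ones, without overlap. FEN1 rose by 0.54 and 0.63 (SE 0.0303, adjusted p = 6.57e-06 and 4.23e-06) and LIG1 by 0.47 and 0.63 (SE 0.0432, adjusted p = 7.67e-05 and 2.08e-05). FEN1 lies among other genes: it shares exon positions with TMEM258 on the opposite strand and with FADS2 on its own strand, at 154 and 187 FPKM. FEN1 also has a named pseudogene.

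The 3 subunits of RPA, the trimer that coats single-stranded DNA, rose by less than the helicase, with a median of 0.39 in double-negative and 0.40 in CD201-only cells, beside 0.73 and 0.69 for MCM2 to MCM7. RPA1, the large subunit, was at 35.8 and 35.1 FPKM in double-negative, 33.2 and 35.2 in CD201-only, and 24.4 and 26.9 in double-positive libraries. It rose by 0.45 and 0.40 (SE 0.0528, adjusted p = 2.50e-04 and 5.68e-04). RPA2 was at 15.3 and 16.5, 16.8 and 16.1, and 11.2 and 13.5 FPKM, and RPA3 at 4.58 and 5.33, 5.60 and 5.16, and 3.12 and 4.0. In all 3 genes the second double-positive library was higher than the first. RPA2 has named pseudogenes. RPA1 and RPA3 share exon positions with SMYD4 and UMAD1 on the opposite strand, at 5.12 and 2.72 FPKM, so these levels carry that uncertainty. RPA2 rose by 0.35 and 0.39 (SE 0.0837, adjusted p = 0.00868 and 0.00580) and RPA3 rose 1.39-fold and 1.51-fold (0.39 and 0.49, SE 0.111, adjusted p = 0.0172 and 0.00753). With no filter the double-negative call of RPA3 was lost (adjusted p = 0.0542). The double-negative calls of RPA2 (0.29, adjusted p = 0.0653) and RPA3 (0.30, adjusted p = 0.113) were lost without the second double-negative library, and that of RPA3 also without the first double-positive one (0.25, adjusted p = 0.0854).

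Genes of nucleotide supply rose, with TYMS ahead of the reductase. TYMS, thymidylate synthase, which makes the precursor of dTTP, was the most abundant member. It was at 182 and 178 FPKM in double-negative, 188 and 197 in CD201-only, and 114 and 122 in double-positive libraries. The double-positive pair was far below the others, and TYMS rose 1.53-fold (log2 0.61, SE 0.0380, adjusted p = 1.12e-05) and 1.64-fold (0.71, SE 0.0380, adjusted p = 6.81e-06). RRM1 and RRM2 are the large and small subunits of ribonucleotide reductase, which makes deoxyribonucleotides. RRM1 was at 15.8 and 15.5, 16.1 and 14.6, and 11.4 and 12.3 FPKM, and RRM2 at 26.9 and 24.4, 28.0 and 30.2, and 21.2 and 22.9. Neither overlapped between a CD13-negative group and the double-positive one, though for RRM2 the lower double-negative library was near the higher double-positive one. RRM1 rose by 0.37 and 0.34 (SE 0.0608, adjusted p = 0.00134 and 0.00245). RRM2 rose by 0.21 (SE 0.0633, adjusted p = 0.0221) and 0.39 (SE 0.0633, adjusted p = 0.00164), the first of these lost without the first double-negative library (0.14, adjusted p = 0.142) or the first double-positive one (0.16, adjusted p = 0.112). That call was also lost with no filter (adjusted p = 0.0590) and under all 3 other scalings, and for RRM2 median-ratio rescaling brought the change to 0.09 (adjusted p = 0.233). Over all alternatives its adjusted p ran from 0.0210 to 0.233. RRM2B, the small subunit that p53 induces and not a member, averaged 7.90, 7.39 and 7.83 FPKM and was not called in any comparison (0.01 and -0.07 against double-positive cells, adjusted p = 0.876 and 0.444). RRM2 and TYMS have named pseudogenes, and TYMS shares exon positions with TYMSOS and ENOSF1 on the opposite strand. The site in TYMS (chr18:657603-657632, plus strand) is shown because it is the most abundant member.
TYMS: gcgggacggccGCGGGAAAaggcgcgcgga

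**Figure D2:**
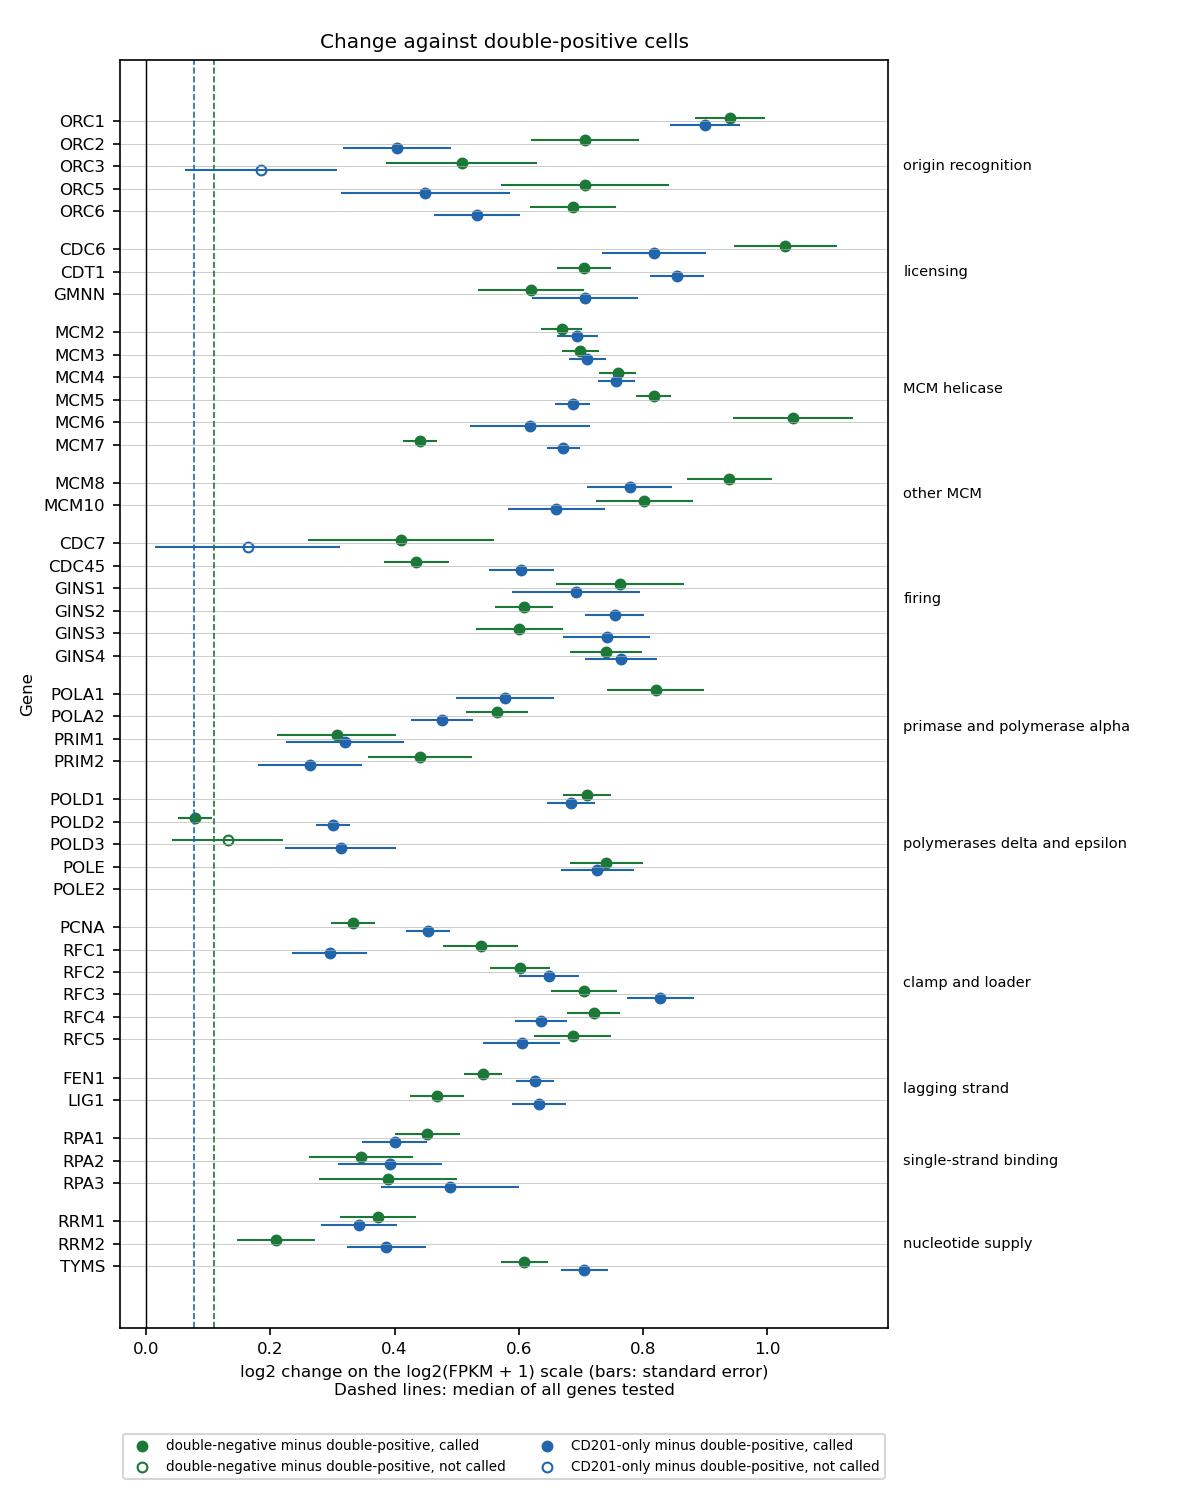
Log2 change (log2(FPKM + 1) scale, bars for the standard error) of the replication genes against double-positive cells, in double-negative (green) and CD201-only cells (blue), grouped by role. Filled points are called and open points are not, and the dashed lines mark the medians of all tested genes, 0.11 and 0.08. All points lie right of 0, from POLD2 at 0.08 to MCM6 at 1.04.

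Between the 2 CD13-negative groups the replication genes as a list were level. The median difference, double-negative minus CD201-only, was 0.01 over the 44 members, beside 0.04 over all tested genes, and 23 of the 44 were above 0. Higher in double-negative cells were 5 members (MCM6, ORC2, RFC1, POLA1 and MCM5), where 21.5% of all tested genes were higher. Higher in CD201-only cells were 7 (MCM7, POLD2, LIG1, CDC45, CDT1, GINS2 and PCNA), where 16.5% of all tested genes were. The other 32 were not called, which does not show that they were equal. On the log2 scale MCM6 had the largest positive difference (0.42, SE 0.0966, adjusted p = 0.0131) and MCM7 the largest negative one (-0.23, SE 0.0273, adjusted p = 6.97e-04), followed by POLD2 (-0.22, SE 0.0277, adjusted p = 9.20e-04). RFC1 (0.24, adjusted p = 0.0182), LIG1 (-0.16, adjusted p = 0.0228) and MCM5 (0.13, adjusted p = 0.0111) were also called. Among the 12 called members, GINS2 (-0.15, adjusted p = 0.0469) and POLA1 (0.24, adjusted p = 0.0480) had the highest adjusted p. Only MCM7 and POLD2, of the 12, were called under all 14 alternatives. The count of 12 fell when any 1 library of the CD13-negative groups was left out. The number of all tested genes called in this comparison fell in those fits as well. The MCM6 call was lost without the first double-negative library (adjusted p = 0.0775), the second (0.0715) or the first CD201-only one (0.0783), while its difference stayed between 0.33 and 0.52, and adjusted p ran from 0.00397 to 0.0783 over the alternatives. Without 1 library, adjusted p reached 0.156 for ORC2, 0.115 for RFC1, 0.214 for POLA1, 0.0839 for MCM5, 0.115 for LIG1, 0.222 for CDC45, 0.171 for CDT1, 0.226 for GINS2 and 0.174 for PCNA, each without loss of direction.

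**Figure D3:**
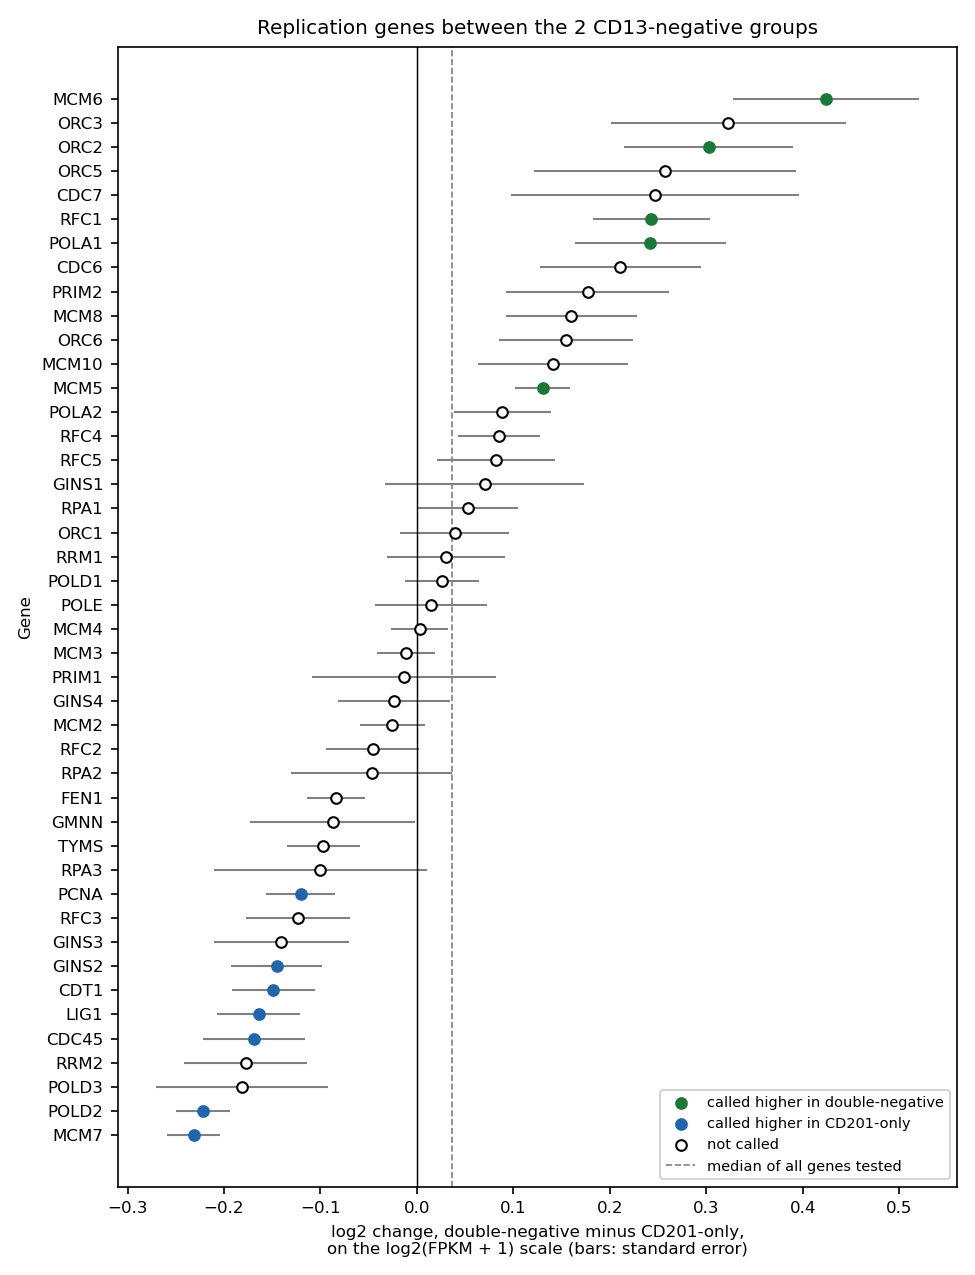
Log2 difference (log2(FPKM + 1) scale, bars for the standard error), double-negative minus CD201-only, of the 44 tested replication genes in order of size. Green points were called higher in double-negative cells (5), blue points higher in CD201-only cells (7) and open points were not called (32). MCM6 lies alone at 0.42 on the right, with MCM7 and POLD2 at the left end, and most genes lie near 0.

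The median gap between replicates of the members was 3.45% of their mean for double-negative libraries, 4.43% for CD201-only and 6.75% for double-positive ones, beside 4.26%, 4.75% and 5.56% over all tested genes. Gaps above 10% were seen in 4, 7 and 17 of the 44 members, where 22.2%, 25.2% and 29% of all tested genes had one. Of the 17 in double-positive cells, 13 were higher in the second library, among them MCM6, CDC6, GINS1 and RPA2. Leaving out either double-positive library moved the median change in double-negative cells to 0.61 (without the first) or 0.65 (without the second) and that in CD201-only cells to 0.62 or 0.64.

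Most genes that work with the members in S phase rose as well. A list of 46 such genes, including checkpoint adaptors, chromatin assembly factors and nucleotide enzymes, had 43 tested. Like the members and the S-phase entry list below, it was chosen with earlier results of these data known. In double-negative cells 37 rose and POLD4 alone fell, with a median of 0.53, where 42.1% of all tested genes rose and 24.5% fell with a median of 0.11. In CD201-only cells 38 rose and 2 fell (POLD4 and POLE4, the latter named after its value was seen), with a median of 0.50, beside 35.8%, 22.9% and a median of 0.08 over all tested genes. PCLAF, a PCNA-associated factor, was at 15.0 and 13.6 FPKM in double-negative, 11.2 and 10.3 in CD201-only, and 5.99 and 7.48 in double-positive libraries, in 3 separate levels. On the log2 scale it had the largest rise of the list in double-negative cells (0.99, SE 0.0999, adjusted p = 1.23e-04, ratio 2.12), followed by WDHD1, which links the helicase to polymerase alpha (0.82, SE 0.0818, adjusted p = 1.11e-04, ratio 2.14). In CD201-only cells the largest rises on the log2 scale were those of NASP, a histone chaperone (0.78, SE 0.0386, adjusted p = 4.48e-06, ratio 1.73), and TK1, thymidine kinase (0.78, SE 0.0333, adjusted p = 2.44e-06, ratio 1.72). By ratio of means the order differed, with ATAD5 first in double-negative (2.36) and TICRR in CD201-only cells (1.91), both named after their values were seen.

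Between the CD13-negative groups 6 of these genes were higher and 8 lower in double-negative cells, with a median of -0.01, where 21.5% of all tested genes were higher and 16.5% lower with a median of 0.04. UHRF1, which brings the maintenance methyltransferase to newly copied DNA, was at 13.5 and 13.1 FPKM in double-negative, 18.9 and 18.5 in CD201-only, and 11.9 and 11.4 in double-positive libraries. It was highest in CD201-only cells, and its double-negative minus CD201-only difference was -0.46 (SE 0.0458, adjusted p = 3.07e-04). PCLAF (0.38), WDHD1 (0.30) and GMPS, a purine enzyme (0.27), were higher in double-negative cells (adjusted p = 0.0233, 0.0249 and 0.0174). The 3 calls were each lost without the first double-negative library, among other single libraries.

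Genes that control entry into S phase included rises and falls, as all tested genes did. Of 29 listed, 27 were tested, and 13 rose, 7 fell and 7 were not called in double-negative cells, with a median of 0.17, beside 42.1% of all tested genes higher, 24.5% lower and a median of 0.11. In CD201-only cells the same counts, 13, 7 and 7, were found, with a median of 0.19, beside 35.8%, 22.9% and 0.08. CCND1, cyclin D1, was at 120 and 121 FPKM in double-negative, 157 and 153 in CD201-only, and 291 and 287 in double-positive libraries. CDKN1A, the inhibitor p21, was at 315 and 318, 395 and 391, and 679 and 675 FPKM. Both were highest in the double-positive pair, the reverse of most replication genes, and lowest in the double-negative pair. CCND1 fell by 1.26 (SE 0.0246, adjusted p = 7.81e-08) and by 0.89 (SE 0.0246, adjusted p = 4.36e-07), and CDKN1A by 1.09 (SE 0.0197, adjusted p = 6.13e-08) and by 0.78 (SE 0.0197, adjusted p = 2.95e-07).

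CDKN2B, the inhibitor p15 of the cyclin D kinases, was at 2.90 and 3.23 FPKM in double-negative, 2.80 and 2.38 in CD201-only, and 7.12 and 7.07 in double-positive libraries. It had the largest fall of this list in CD201-only cells, by 1.18 (SE 0.0837, adjusted p = 2.54e-05). Among the risers, SKP2, part of the ubiquitin ligase that removes p27, was at 32.8 and 32.4, 42.8 and 39.7, and 19.8 and 21.1 FPKM. It was highest in CD201-only cells, where it rose 2.02-fold (0.98, SE 0.0478, adjusted p = 4.35e-06), and was lower in double-negative than in CD201-only cells (-0.33, SE 0.0478, adjusted p = 0.00179). CDC25A, the phosphatase that activates CDK2, was at 17.8 and 17.3, 16.9 and 16.4, and 9.35 and 9.57 FPKM and rose by 0.83 in double-negative cells (SE 0.0437, adjusted p = 5.10e-06).

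**Figure D4:**
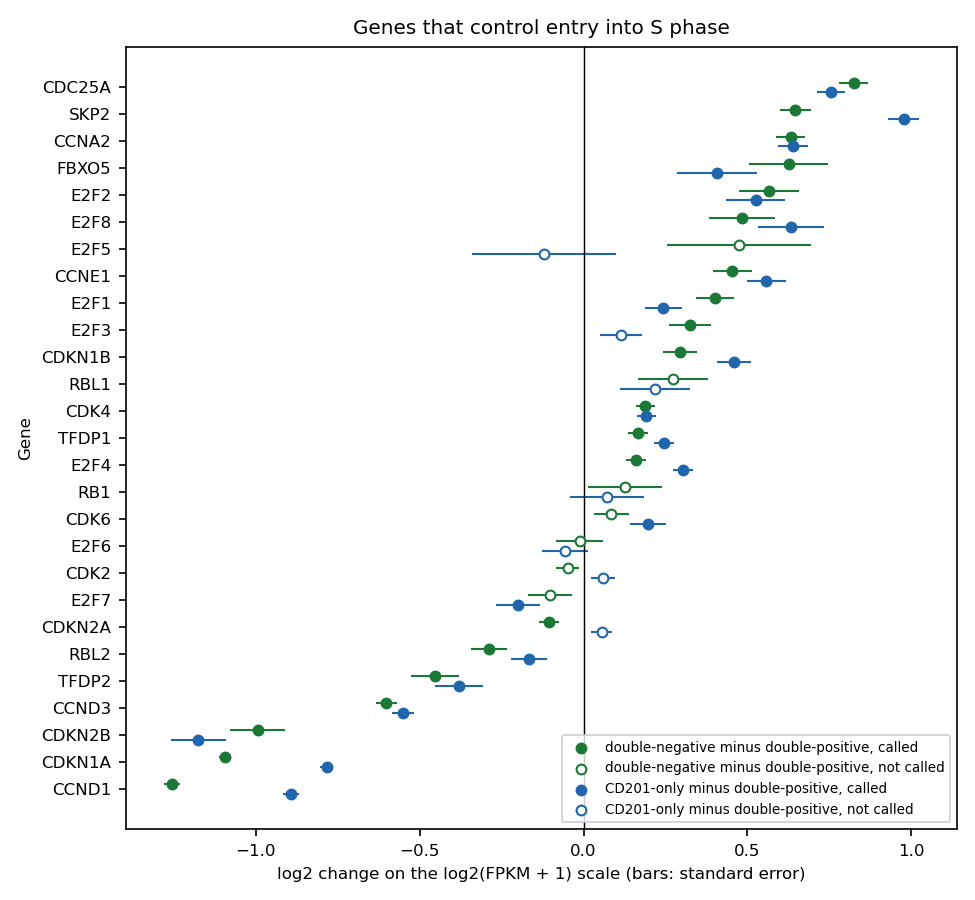
Log2 change (log2(FPKM + 1) scale, bars for the standard error) of the 27 tested genes that control entry into S phase, against double-positive cells, in double-negative (green) and CD201-only cells (blue). Filled points are called and open points are not. CCND1, CDKN1A and CDKN2B lie furthest to the left and CDC25A and SKP2 furthest to the right.

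**Figure D5:**
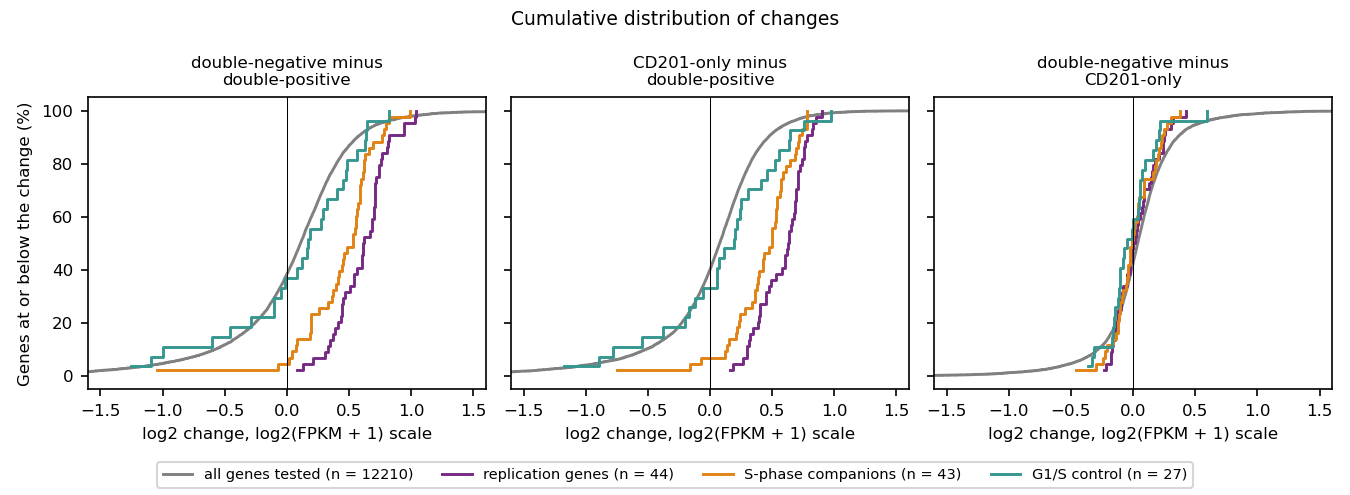
Cumulative percentage of genes at or below each log2 change (log2(FPKM + 1) scale, axis from -1.6 to 1.6) for all 12210 tested genes, the 44 replication genes, 43 S-phase companions and 27 genes that control S-phase entry, in the 3 comparisons. Against double-positive cells the replication genes run to the right of all tested genes over most of the axis, with medians of 0.61 and 0.63 beside 0.11 and 0.08, and between the CD13-negative groups they rise steeply near 0.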

How the data were processed

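Poly-A RNA libraries were made with a kit that keeps strand, from cells sorted on day 8, per the labels' protocols. The expression values, deposited by the authors as FPKM for 27788 symbols in 6 library columns, were made with STAR and Cuffnorm on hg19 (GRCh37), per the submitters' processing notes. The sources used here do not give versions, annotation, strand setting or library scaling. Counts were not used here, so absolute depth is unknown and no counting interval is given.

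Values were taken as log2(FPKM + 1). Genes averaging at least 1 FPKM (12210) were fitted in limma 3.58.1 (R 4.3.3) with a variance trend, 1 coefficient per group over all 6 libraries, leaving 3 residual degrees of freedom, to which the prior added 3.95. Adjusted p-values are Benjamini-Hochberg over all tested genes in each comparison. The fit was tested on simulated data in which 200 genes were changed. It recovered 59.7% of changes of 0.25 on the log2 scale and 100% of those of 0.5 and 1. False calls made up 4.95% of all calls there.

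Any member could be named. Of the companion lists, the 3 called genes with the largest rise and the 3 with the largest fall per comparison were named. RRM2B, ORC4, MCM9, MCMBP and POLD4, which are paralogs, partners or missing subunits, were named too. So were ANPEP and PROCR, and POU5F1, SOX2, KLF4 and MYC as the delivered factors. The members and lists were chosen with earlier results of these data known. Exon overlaps and pseudogenes come from GENCODE release 29, and promoter windows from RefSeq (GRCh38.p14). No coordinates were converted between builds. Python 3.11.15, pandas 2.3.3, numpy 2.4.6 and matplotlib 3.10.9 were used.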

Additional observations from a re-analysis of the deposited data

How the results depend on the processing

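Alternatives were a pseudocount of 0.1, no filter, 3 other scalings, limma without the trend, a fit of only the libraries compared, a replicate block, and leaving out each of the 6 libraries. The count of members called stayed within 38 to 43 in double-negative and 38 to 42 in CD201-only against double-positive cells, with 0 lower in each. Of these calls, 37 of 43 and 38 of 42 held under every alternative. POLD2 in double-negative cells turned to -0.0421 under median-ratio rescaling (adjusted p = 0.258). Changes of sign among values that were not called are not counted as reversals. The 12 calls between the CD13-negative groups became 5 with no filter, 7 without the trend and 3 to 15 when 1 library was left out. The 5 higher ones became 2 with no filter, 3 under quantile normalization and 0 to 7 without 1 library. The 7 lower ones became 3 with no filter, 3 under TPM rescaling, 3 without the trend and 2 to 8 without 1 library. Under median-ratio rescaling the 5 and 7 became 4 and 10, with FEN1, RRM2 and TYMS gained as lower and POLA1 lost.

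Median-ratio rescaling moved the median of all tested genes in double-negative against double-positive cells from 0.109 to 0.003 and that of the members from 0.614 to 0.499, and the share of higher among called genes from 63.2% to 48.3%. In CD201-only cells that share went from 61.0% to 48.1%, and to 47.1% under TPM rescaling (each library scaled to the same sum), with member medians of 0.548 and 0.562. Same-numbered libraries shared deviations only weakly (correlations of 0.0761, -0.0727 and 0.117), and the numbers are not stated to pair them. The replicate block gave 43 calls in double-negative and 42 in CD201-only against double-positive cells, 10 between the CD13-negative groups (5 higher, 5 lower) and 44 by the F test. With 1 library left in a group, that library is assumed to vary like the others. Absolute depth is unknown, and the widest replicate gaps were in low members, ORC3 (47.5% of its mean in double-positive cells) and CDC7 (34.0% in CD201-only cells).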
